A study of Mus musculus with 5 samples.

Results

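Amino acid transporters move amino acids across the plasma membrane and the membranes of the lysosome, and here they are the members of 7 solute carrier (Slc) gene families: 1, 3, 6, 7, 36, 38 and 43. A rule on gene symbols found them, which gave 63 of the 27678 genes measured. The rule also takes in relatives that carry monoamines, creatine or purine bases. The cells were dendritic cells, the immune cells that present antigen to T cells, sorted from mouse bone marrow cultures. Marrow of Etv3+/+ mice (2 libraries) and of Etv3-/- mice (3 libraries) was kept for 6 days in 20 ng/ml GM-CSF with 5 ng/ml IL-4, which turn progenitors into dendritic cells. The sort kept live singlets with CD11c, a middle level of CD11b, much MHC class II and no CD115. Etv3 encodes a transcriptional repressor of the ETS family, and Etv3-/- animals carry 2 disrupted copies of it. The sources used here do not state how the allele was made, the age and strain of the mice, or whether replicates came from separate animals. The p-values therefore cover only the spread among these libraries, part or all of which may be technical.

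Many of the carriers work as pairs: a heavy chain, Slc3a2 (CD98) or Slc3a1, brings a light chain of the Slc7 family to the cell surface, and the light chain sets which amino acids pass. Light chains are exchangers, so an amino acid enters as another leaves, whereas most Slc1, Slc6 and Slc38 carriers use the sodium gradient and some Slc36 carriers use protons. In immune cells such carriers bring in leucine and arginine, which are sensed by the kinase complex mTORC1, glutamine for metabolism, and cystine for the antioxidant glutathione.

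Values are the authors' normalized counts: the reads of each gene divided by a factor for each library. Recovered reads ran from 42983550 to 68253936 per library. A test covered the 13813 genes that reached a normalized count of 10 in at least 2 libraries, on the log2(normalized count + 1) scale with limma, and a gene was called at a Benjamini-Hochberg adjusted p under 0.05. Etv3 itself was at 23050 and 25447 in Etv3+/+ and at 18691, 20416 and 22856 in Etv3-/- (adjusted p = 0.567). Which part of the locus was disrupted is not given here, so this value does not check the genotype. All 12 markers of dendritic cells listed were above 0 in the table. In Etv3+/+ replicate 2 genes of low GC content were relatively high (Spearman correlation with GC across genes of -0.42), and in Etv3-/- replicate 3 they were relatively low (0.41). The other libraries lay between -0.10 and 0.09.

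Slc43a2 was the single member called. Slc43a2 is a sodium-independent carrier of leucine and other large neutral amino acids, and its transcript rose in Etv3-/- cells. Of the 63 members, 18 were at 0 in every library, 9 were above 0 but under the filter, and 36 were tested. Members that passed through the higher group alone had to differ, so counts over the 36 do not stand for all 63. The 1 higher call among the 36 stands beside 121 of all genes tested (0.876%), and the 0 lower calls beside 44 (0.319%), together 1.19%. At an unadjusted p under 0.05 there were 5 higher and 6 lower members, 11 of 36 (30.6%), against 18.0% of all genes tested. On the recovered reads edgeR called 2 members (Slc43a2 higher, Slc6a19 lower), against 1.14% of all genes tested. DESeq2 called 5, against 8.6% of all genes: Slc43a2, Slc7a7 and Slc1a2 higher, Slc6a19 and Slc7a11 lower. Of these, Slc1a2 and Slc6a19 passed the filter through their higher group alone. The libraries of both genotypes did not overlap for 17 of the 36, 9 higher and 8 lower in Etv3-/-, against 36.0% of all genes (16.7% higher and 19.3% lower). The median log2 fold change of the tested members was 0.15, against -0.06 over all genes tested. In bulk libraries fewer cells of a type and less RNA per cell cannot be told apart, and this holds for every difference below.

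**Figure D1:**
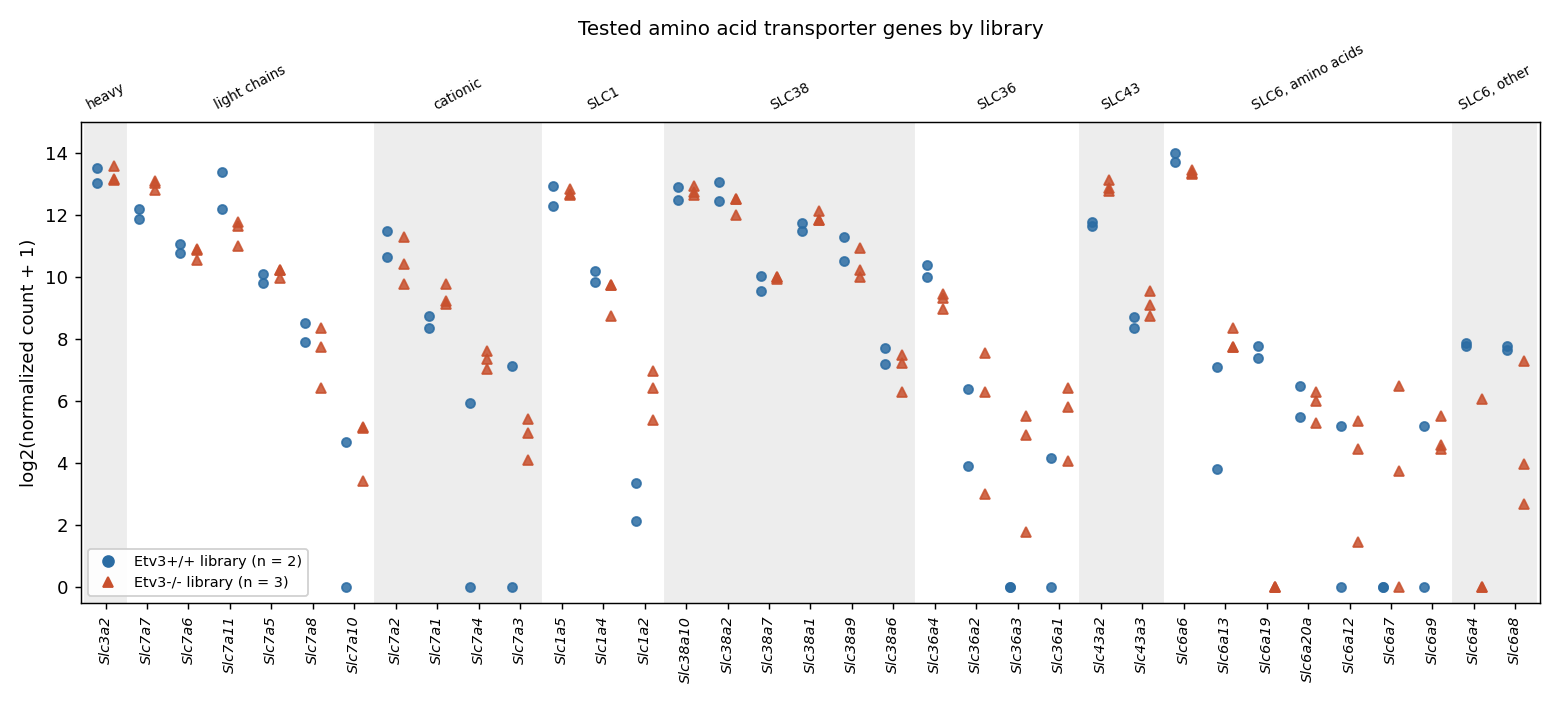
Normalized counts of the tested members described here on a log2(value + 1) scale, in families by role along the horizontal axis. Each circle is an Etv3+/+ library (n = 2) and each triangle an Etv3-/- library (n = 3). The triangles of Slc43a2 and Slc7a7 lie above their circles, and those of Slc7a11 and Slc36a4 lie below.

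**Figure D2:**
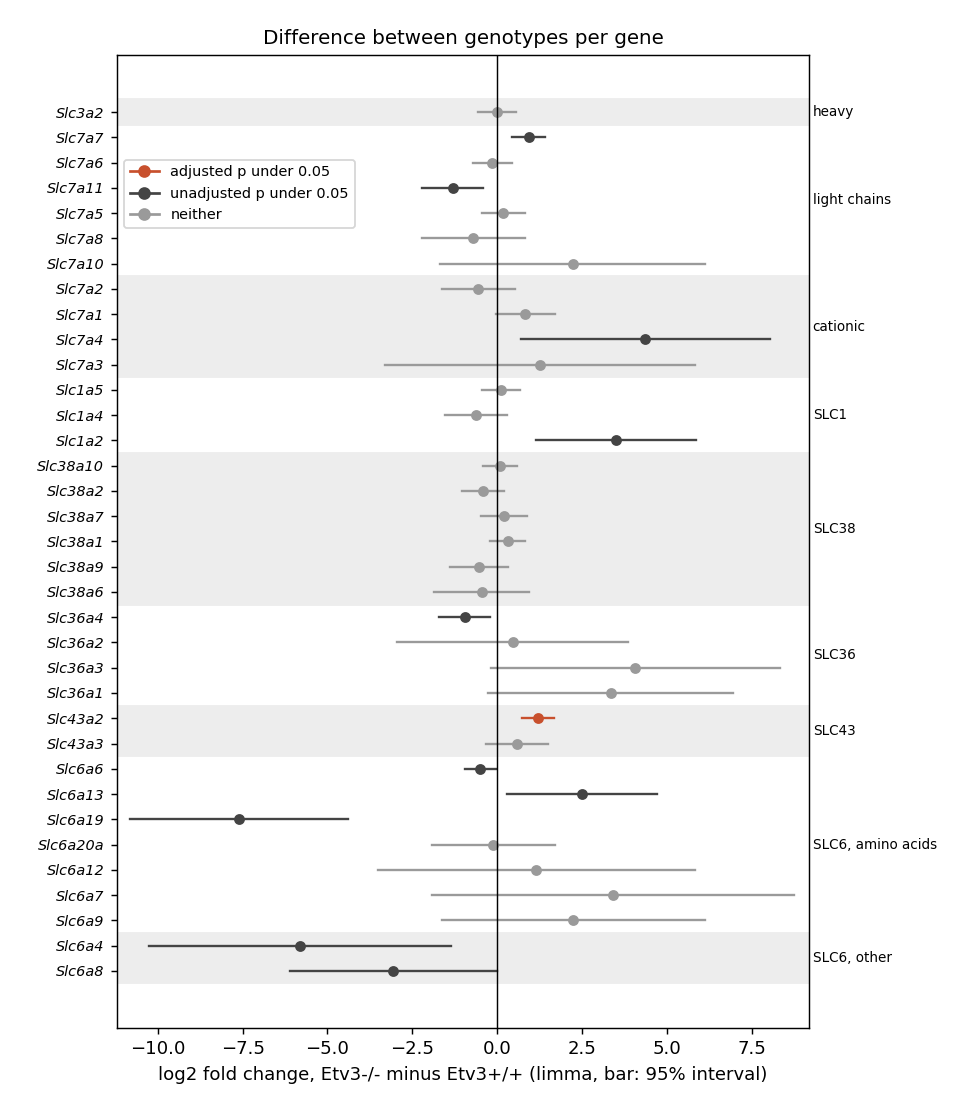
Log2 fold change of each tested member described here, Etv3-/- minus Etv3+/+, with the 95% interval from limma as a bar and families by role from top to bottom. Slc43a2 at 1.22 is the one member past the adjusted threshold, and low genes with libraries at 0, such as Slc6a19, have the widest bars.

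The DNA in front of 3 members is shown because Slc43a2 carried the call and the light chains Slc7a7 and Slc7a11 had differences in opposite directions. Each run is the 250 bases before the first RefSeq start of the gene in GRCm38.p6, on the gene's strand. Capitals mark matches to TGATGNAA, the letters of the amino acid response element, to which the stress factor ATF4 is known to bind. The windows lie at chr11:75531444-75531693 on the plus strand for Slc43a2, at chr14:54417945-54418194 on the minus strand for Slc7a7, and at chr3:50443614-50443863 on the minus strand for Slc7a11.
Slc43a2: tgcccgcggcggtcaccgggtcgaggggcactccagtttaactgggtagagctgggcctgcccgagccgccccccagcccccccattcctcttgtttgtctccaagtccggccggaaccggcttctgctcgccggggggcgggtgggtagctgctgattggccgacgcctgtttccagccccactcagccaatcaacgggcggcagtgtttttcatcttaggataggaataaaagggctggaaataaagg
Slc7a7: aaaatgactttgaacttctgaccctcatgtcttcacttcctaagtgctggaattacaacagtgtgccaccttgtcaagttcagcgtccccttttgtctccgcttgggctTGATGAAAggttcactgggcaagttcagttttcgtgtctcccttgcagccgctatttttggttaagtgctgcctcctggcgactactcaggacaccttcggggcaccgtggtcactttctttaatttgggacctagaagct
Slc7a11: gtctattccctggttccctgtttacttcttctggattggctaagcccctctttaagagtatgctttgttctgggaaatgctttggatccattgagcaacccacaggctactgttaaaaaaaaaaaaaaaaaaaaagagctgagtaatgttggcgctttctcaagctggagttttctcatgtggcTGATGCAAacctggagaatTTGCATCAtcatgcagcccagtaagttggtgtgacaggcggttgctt
The run of Slc7a11 holds the letters at 66 bases before the start and, on the other strand, at 47 bases before it. That of Slc7a7 holds them at 141 bases before the start. Shares and counts that follow take the first start listed for each gene. Of all 27025 RefSeq promoters of this length, 3.53% held a match on either strand. Of 24 tested members found in the promoter table, Slc7a7 and Slc7a11 were the 2 with a match. The ETS letters CCGGAAG were in 7.05% of all promoters and in 4 of the 24 (Slc3a2, Slc7a6, Slc36a4 and Slc38a6). The antioxidant response letters TGACNNNGC were in 10.1% of all promoters and in 3 of the 24 (Slc7a1, Slc38a2 and Slc6a13). At later starts Slc6a9 and Slc7a6 held the antioxidant letters as well. Slc7a7 held another match to the amino acid response letters at 243 bases before its start number 2. The Slc43a2 window held none of the 3 strings. Both strands were searched, and matches of different strings did not overlap in these windows. A match is a description of letters and no measured binding site.

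Among the sodium-independent carriers of the Slc43 family, Slc43a2 was at 3465 and 3224 normalized counts in Etv3+/+ and at 8927, 6962 and 7549 in Etv3-/-. Every Etv3-/- library lay above both Etv3+/+ libraries. The means were 3345 ± 170 (SD, n = 2) and 7813 ± 1009 (SD, n = 3), a ratio of 2.34. The log2 fold change was 1.22 with a 95% interval of 0.74 to 1.69 (limma, adjusted p = 0.0396). The gene lies on chromosome 11 from 75531694 to 75577575 in mm10, on the plus strand. Per kilobase of exon it moved from rank 9 among the 63 members in Etv3+/+ to rank 6 in Etv3-/-.

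The size of the Slc43a2 difference changed little over the alternatives. Its call was lost with no filter, in limma without trend, and in the fits with libraries left out. Over 19 alternatives the log2 fold change ran from 1.10 to 1.31 and the adjusted p from 2.15e-06 to 0.160, and the call was kept in 11. All genes called made up 1.14% in edgeR, 1.95% with a replicate block, 2.29% with a correction for GC content and length and 1.91% with both. With 4 libraries, each of the 5 left out in turn, the adjusted p was between 0.105 and 0.157. A gene model on the other strand, Gm45606, shares 922 bases with the Slc43a2 exons, 9.18% of them, and the sources used here do not say whether counting used strand.

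**Figure D3:**
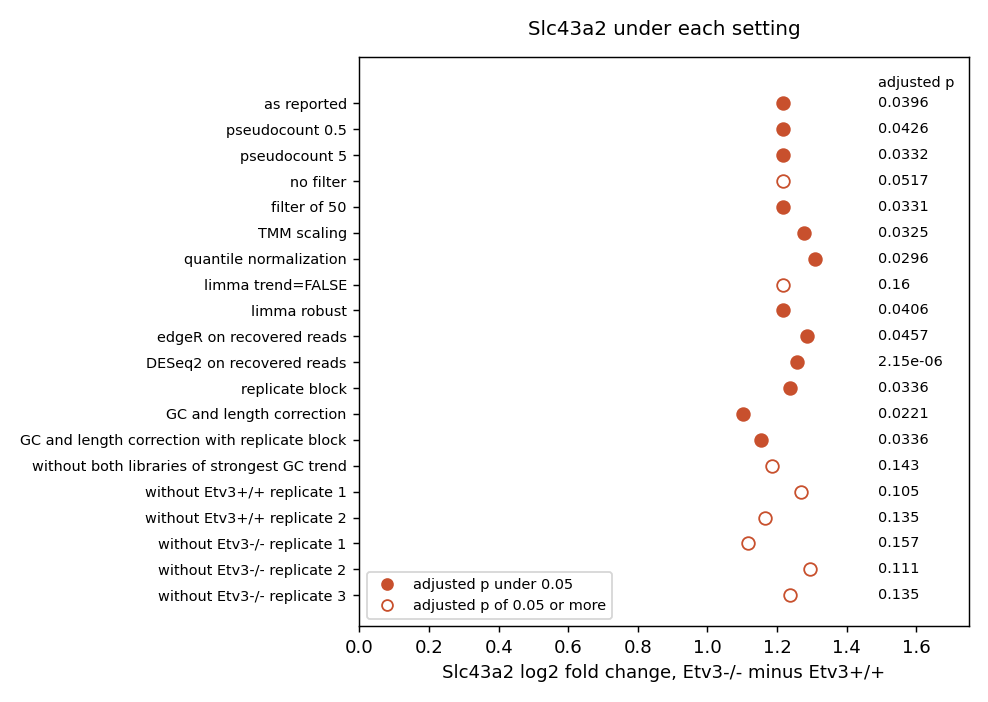
Log2 fold change of Slc43a2, Etv3-/- minus Etv3+/+, as reported and under each of 19 alternative settings, with the adjusted p at the right. Filled points are at an adjusted p under 0.05, and all points lie between 1.10 and 1.31 whether filled or open.

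Slc43a3, a family member known as a carrier of purine bases, was at 329 and 414 in Etv3+/+ and at 429, 549 and 744 in Etv3-/-. Its groups did not overlap, but the lowest Etv3-/- library lay close to the higher Etv3+/+ library (log2 fold change 0.60, adjusted p = 0.459). Slc43a1, another leucine carrier, was under the filter at 5.99 at most.

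The heavy chain Slc3a2 was the most abundant member per kilobase of exon. It was at 11743 and 8393 normalized counts in Etv3+/+ and at 8879, 9220 and 12215 in Etv3-/-. The groups overlapped throughout, and the log2 fold change was 0.01 with an interval of -0.55 to 0.57 (limma, adjusted p = 0.987). Slc3a1, the heavy chain of kidney and intestine, reached at most 1.71.

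Of the light chains, Slc7a7 exchanges cationic for neutral amino acids. It was at 4679 and 3765 normalized counts in Etv3+/+ and at 8665, 7120 and 8325 in Etv3-/-. All Etv3-/- libraries were above all Etv3+/+ libraries, with means of 4222 ± 646 (SD, n = 2) and 8037 ± 812 (SD, n = 3), a ratio of 1.90. The log2 fold change of 0.93 (interval 0.45 to 1.42) did not pass the threshold (limma, unadjusted p = 0.00227, adjusted p = 0.0824). DESeq2 on the recovered reads, which called 8.6% of all genes, gave an adjusted p of 0.000901 for Slc7a7, and the other alternatives gave 0.0661 to 0.281. Slc7a7 shares 232 exonic bases with the opposite-strand gene Oxa1l, which was at means of 1818 and 2257.

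Slc7a11, the cystine and glutamate exchanger that feeds glutathione synthesis, differed in the other direction. It was at 4627 and 10703 in Etv3+/+ and at 3209, 3477 and 2061 in Etv3-/-. The groups did not overlap, but the Etv3+/+ libraries lay far apart, and the higher one was replicate 2. The log2 fold change was -1.31 (interval -2.21 to -0.41) and did not pass (limma, unadjusted p = 0.0103, adjusted p = 0.153). Its longest transcript holds 40.7% GC, the lowest share among the tested members. It was -0.70 without Etv3+/+ replicate 2 (adjusted p = 0.476) and -0.47 without both libraries of strong GC trend (adjusted p = 0.443). After a correction for GC content and length it was -0.66 (adjusted p = 0.116). DESeq2 gave an adjusted p of 0.0153, and the range over all alternatives was 0.0153 to 0.476.

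Slc7a6, a close relative of Slc7a7, was at 1746 and 2115 in Etv3+/+ and at 1497, 1861 and 1905 in Etv3-/- (log2 fold change -0.14, adjusted p = 0.815). Slc7a5, the main leucine importer of activated lymphocytes, was at 898 and 1089 in Etv3+/+ and at 1198, 1205 and 991 in Etv3-/-. Its groups overlapped, with a log2 fold change of 0.19 and an interval of -0.45 to 0.83 (limma, adjusted p = 0.765). Slc7a8, another carrier of neutral amino acids, was at 367 and 236 against 326, 85.5 and 213 (log2 fold change -0.70, adjusted p = 0.612). Slc7a10 was tested at low level, and 4 light chains were at 0 in every library: Slc7a9, Slc7a12, Slc7a13 and Slc7a15.

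Per kilobase of exon, the light chains added up to 2441 and 2720 in Etv3+/+ and to 3577, 3163 and 3391 in Etv3-/-, with every Etv3-/- library above both others. Slc7a7 alone was at 1411 and 1136 against 2614, 2148 and 2511, so the higher sum mostly repeats this gene. The following shares and ratios were chosen after the values were seen and have no test. Slc7a7 made up 57.8% and 41.8% of that sum in Etv3+/+ and 73.1%, 67.9% and 74.1% in Etv3-/-. Slc7a11 made up 13.6% and 28.3% in Etv3+/+ and 6.45%, 7.90% and 4.37% in Etv3-/-. Slc7a6 made up 15.6% and 17.0% against 9.16%, 12.9% and 12.3%, though its own level overlapped between genotypes (log2 fold change -0.14). In each library the Slc7a7 transcript was the largest light chain share. Its difference of 21.9 percentage points between the group means was 13.9 without Etv3+/+ replicate 2 and 12.7 without both libraries of strong GC trend. The level per kilobase of Slc7a7 was 4.25 and 1.48 times that of Slc7a11 in Etv3+/+ and 11.3, 8.60 and 17.0 times in Etv3-/-. Slc43a2 was 1.42 and 1.09 times as high per kilobase as Slc7a5 in Etv3+/+ and 2.75, 2.13 and 2.81 times as high in Etv3-/-, and both carry leucine.

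**Figure D4:**
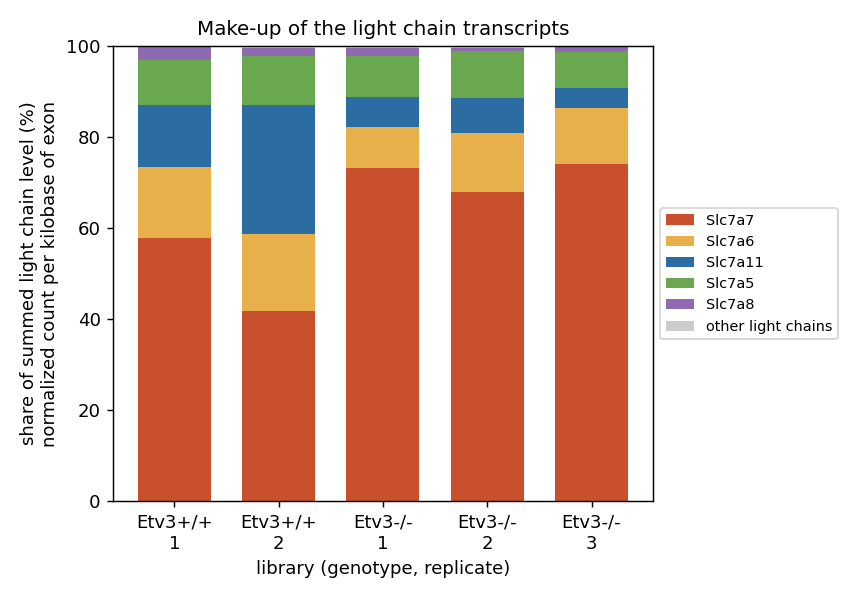
Share of each light chain in the summed light chain level (normalized count per kilobase of exon, %), 1 bar per library. The Slc7a7 share runs from 41.8% to 57.8% in Etv3+/+ and from 67.9% to 74.1% in Etv3-/-, and the Slc7a11 share is at most 7.90% in Etv3-/-.

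Arginine and lysine also enter through cationic carriers that need no heavy chain. Slc7a1 was at 325 and 424 in Etv3+/+ and at 869, 593 and 562 in Etv3-/-. The groups did not overlap, and the log2 fold change of 0.83 had an interval of -0.04 to 1.70 (limma, adjusted p = 0.298). Slc7a2, the arginine carrier linked to macrophage activation, was at 1597 and 2831 against 2517, 1375 and 882, with overlapping groups (log2 fold change -0.55, adjusted p = 0.560). Slc7a4, a relative with no settled substrate, was at 0 and 59.9 in Etv3+/+ and at 162, 130 and 195 in Etv3-/-. It shares 554 exonic bases with the opposite-strand gene P2rx6, at means of 53.5 and 3.35. Slc7a4 did not pass the threshold (log2 fold change 4.37, limma, adjusted p = 0.214). Over the alternatives that kept both Etv3+/+ libraries its adjusted p was 0.170 to 0.477. The log2 fold change of Slc7a4 was 1.40 without Etv3+/+ replicate 1 and 7.33 without replicate 2, where the Etv3+/+ library left was at 0. Slc7a14 was under the filter at 2.80 at most.

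In the Slc1 family Slc1a5, the main glutamine importer of many proliferating cells, was at 7849 and 5037 in Etv3+/+ and at 7333, 6577 and 6431 in Etv3-/-. The Etv3-/- libraries lay between the Etv3+/+ libraries (log2 fold change 0.11, adjusted p = 0.856). Slc1a4, which carries alanine, serine and cysteine, was at 1172 and 914 against 855, 427 and 847 (log2 fold change -0.61, adjusted p = 0.452). Slc1a2, the glutamate carrier known from glia, was low: 9.32 and 3.42 in Etv3+/+ and 40.9, 85.5 and 124 in Etv3-/-. All Etv3-/- libraries were above, and the log2 fold change was 3.50 (interval 1.14 to 5.87). Slc1a2 was under 10 in both Etv3+/+ libraries and passed the filter through Etv3-/- alone, so it had to differ. The adjusted p was 0.148 in limma and 0.0199 in DESeq2, which called 8.6% of all genes. Over the alternatives that kept both Etv3+/+ libraries it ran from 0.0199 to 0.341. Slc1a1, Slc1a3, Slc1a6 and Slc1a7 were at 0 in every library.

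None of the 6 tested Slc38 carriers reached an unadjusted p under 0.05. Slc38a10 was at 7560 and 5740 in Etv3+/+ and at 6829, 6359 and 7786 in Etv3-/- (log2 fold change 0.08, adjusted p = 0.877). Slc38a2, a neutral amino acid carrier that is induced when amino acids run short, was at 5626 and 8544 against 5809, 5866 and 4119 (log2 fold change -0.42, adjusted p = 0.449). Their groups overlapped. Slc38a1, a glutamine carrier, was at 2880 and 3443 against 3630, 4484 and 3647, with no overlap (log2 fold change 0.31, adjusted p = 0.490). Slc38a9, which signals lysosomal arginine to mTORC1, was at 1467 and 2514 against 1951, 1189 and 1018, with overlap (log2 fold change -0.53, adjusted p = 0.488). Summed per kilobase, the family was at 2338 and 2416 in Etv3+/+ and at 2319, 2230 and 2223 in Etv3-/-, slightly lower in every library. Slc38a4 and Slc38a11 were under the filter, at 15.8 and 0.877 in a single library each. Slc38a3, Slc38a5 and Slc38a8 were at 0 in every library.

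Of the Slc36 carriers, Slc36a4, a relative of the proton-coupled ones that carries amino acids such as proline and tryptophan, was the most abundant per kilobase. It was at 1026 and 1340 in Etv3+/+ and at 701, 634 and 495 in Etv3-/-. The groups did not overlap, with means of 1183 ± 222 (SD, n = 2) and 610 ± 105 (SD, n = 3). The log2 fold change of -0.96 (interval -1.70 to -0.21) did not pass (limma, unadjusted p = 0.0183, adjusted p = 0.191), and was -0.54 after a correction for GC content and length. Its longest transcript holds 43.4% GC. Slc36a2, a carrier of small amino acids, was at 14.0 and 83.9 against 187, 78.0 and 7.01, with wide overlap (log2 fold change 0.46, adjusted p = 0.899).

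Most tested members of the Slc6 family were low, apart from the taurine carrier Slc6a6. Slc6a6 was at 16382 and 13391 normalized counts in Etv3+/+ and at 11124, 10107 and 10404 in Etv3-/-. Every Etv3-/- library was below both Etv3+/+ libraries, with means of 14886 ± 2115 (SD, n = 2) and 10545 ± 523 (SD, n = 3). The log2 fold change of -0.49 (interval -0.94 to -0.04) did not pass the threshold (limma, unadjusted p = 0.0364, adjusted p = 0.245). Per kilobase Slc6a6 was the second member in Etv3+/+ and the fourth in Etv3-/-.

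Slc6a19, the neutral amino acid carrier of intestine and kidney, was at 220 and 169 normalized counts in Etv3+/+, from 236 and 197 reads, and at 0 in all 3 Etv3-/- libraries. Against a floor of 3 reads over the Etv3-/- group, 1.04 normalized counts, its mean was at least 186-fold lower. Slc6a19 passed the filter through the Etv3+/+ libraries alone, so it had to differ. The adjusted p was 0.0529 in limma, 0.0457 in edgeR and 1.92e-07 in DESeq2, which called 8.6% of all genes. Over the 16 alternatives that could be fitted the adjusted p was between 1.92e-07 and 0.135. These values rest on counts in amplified cDNA of few cells, and the interval of a floor covers counting error alone.

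The serotonin carrier Slc6a4 was at 220 and 233 in Etv3+/+ and at 0, 0 and 66.6 in Etv3-/- (adjusted p = 0.187). The creatine carrier Slc6a8 was at 216 and 199 against 5.38, 14.9 and 154 (log2 fold change -3.06, adjusted p = 0.278). Etv3-/- replicate 3 stood above the other Etv3-/- libraries for both, yet below both Etv3+/+ libraries. Slc6a4 was above 0 in Etv3+/+ alone without replicate 3. It therefore had to differ there and with a replicate block, which rests on numbers 1 and 2. Without Etv3-/- replicate 3 the adjusted p was 0.111 for Slc6a4 and 0.156 for Slc6a8. Over the alternatives that kept both Etv3+/+ libraries it was 0.0375 to 0.436 for Slc6a4 and 0.0868 to 0.541 for Slc6a8. Slc6a13, a carrier of GABA and taurine, was at 13.0 and 135 against 213, 215 and 325 (log2 fold change 2.50, adjusted p = 0.232). Its log2 fold change was 0.86 without Etv3+/+ replicate 1 and 4.14 without replicate 2. Further tested members, Slc38a6, Slc38a7, Slc7a3, Slc7a10, Slc36a1, Slc36a3, Slc6a7, Slc6a9, Slc6a12 and Slc6a20a, had adjusted p-values of 0.299 to 0.957 in limma. Slc6a2, Slc6a5, Slc6a11, Slc6a14, Slc6a16, Slc6a17 and Slc6a21 were at 0 in every library, and Slc6a18 reached 4.30 at most. The 16 tested members with a mean under 250 in both groups had a median absolute log2 fold change of 2.65, against 0.54 for the 20 higher ones. Some of the low members passed the filter through the higher group alone and had to differ. The medians therefore do not show that low carriers differed more between genotypes.

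The summed level of all members per kilobase was 13201 and 11818 in Etv3+/+ and 13385, 12194 and 13499 in Etv3-/-. The groups overlapped in this sum, while some of the families did not. Slc43 carriers were at 419 and 415 against 985, 816 and 918. Slc43a2 alone was at 345 and 321 against 889, 693 and 752. Amino acid carriers of the Slc6 family were at 2009 and 1727 against 1421, 1302 and 1395. Slc6a6 alone was at 1937 and 1583 against 1315, 1195 and 1230. These sums therefore mostly repeat a single gene each. The monoamine, creatine and orphan carriers of the Slc6 family were at 121 and 89.5 against 1.03, 2.85 and 44.3. The cationic, Slc1 and Slc36 sums overlapped between genotypes.

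Related lists set the carriers beside the genes that sense and use amino acids. Beside the counts below, 18.0% of all genes tested had an unadjusted p under 0.05, and DESeq2 called 8.6%. Of 22 tested carriers of other families none was called by limma, edgeR or DESeq2, and 1 was lower at an unadjusted p under 0.05. Their most abundant members were Slc15a3, a lysosomal carrier of histidine and peptides (means 7534 and 10671, adjusted p = 0.333), and Slc25a39, the mitochondrial glutathione carrier (12690 and 11257, adjusted p = 0.711). Of 40 genes of amino acid sensing by mTORC1 none was called by limma or edgeR and 3 by DESeq2 (1 higher, 2 lower), while 7 were lower and 1 higher at an unadjusted p under 0.05, with a median log2 fold change of -0.20. Rragc, a GTPase that brings mTORC1 to the lysosome, was at 16914 ± 761 (SD, n = 2) in Etv3+/+ and 11216 ± 1043 (SD, n = 3) in Etv3-/- (limma, adjusted p = 0.177). Sesn2, a leucine sensor, was at means of 15267 and 16475 (adjusted p = 0.805).

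None of 30 tested genes of the ATF4 response was called by limma or edgeR, and 3 were by DESeq2 (2 higher, 1 lower), 5 being higher and 1 lower at an unadjusted p under 0.05, with a median of 0.19. Mthfd2, a mitochondrial folate enzyme of that response, was at means of 13286 and 17993 (adjusted p = 0.305), and Ppp1r15a, a phosphatase subunit that ends it, at 28716 and 31734 (adjusted p = 0.755). None of 23 aminoacyl-tRNA synthetases and partners was called by limma or edgeR, and 2 were higher in DESeq2, with 6 higher and 0 lower at an unadjusted p under 0.05 and a median of 0.31. Nars, which charges asparagine, was at means of 12952 and 12763 (adjusted p = 0.965), and Gars, which charges glycine, at 8654 and 9939 (adjusted p = 0.640).

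Amino acid catabolism and synthesis had 1 called gene among 36. Odc1, which makes polyamines from ornithine, a product of arginine, rose: it was at 2539 ± 258 (SD, n = 2) in Etv3+/+ and 7254 ± 1451 (SD, n = 3) in Etv3-/- (log2 fold change 1.50, limma, adjusted p = 0.0348). Its call was lost without each of the 5 libraries in turn, without both libraries of strong GC trend, and in limma without trend. Glutathione and cystine handling had 1 called gene among 22. Dpep2, a membrane dipeptidase, rose: it was at 1501 ± 81.7 (SD, n = 2) in Etv3+/+ and 15934 ± 3212 (SD, n = 3) in Etv3-/-, with a log2 fold change of 3.39 (limma, adjusted p = 0.00467). That call was lost without Etv3-/- replicate 1. Dpep2 was not in the correction for GC content and length, because 2 gene models share its symbol. In both lists the other genes at an unadjusted p under 0.05 went either way, 11 of 36 and 7 of 22 in all, and the medians were -0.21 and 0.03.

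Markers of other cells moved with genotype, and their part in the values of Slc43a2, Slc7a7, Slc7a1 and the other members was not tested. Of 14 macrophage and monocyte markers 3 were called higher (C1qa, C1qb and C1qc), 10 were higher at an unadjusted p under 0.05 and none lower. Their sum was 35834 to 37032 in Etv3+/+ and 58175 to 78181 in Etv3-/-, and Fcgr1 was at 0 in both Etv3+/+ libraries and in Etv3-/- replicate 2. Csf1r, which encodes the CD115 used to exclude cells in the sort, was at 1018 and 1348 against 3493, 2403 and 2889. Of the 12 dendritic cell markers Ciita, the master activator of MHC class II, was called higher. At an unadjusted p under 0.05 in limma 4 of them were higher and 1 lower, and 8 of the 12 had a positive log2 fold change. Their sum was 1315272 to 1832776 against 2485896 to 3316921. The sums of B cell markers were 1682 to 2235 against 3386 to 5240, those of T cells 2346 to 3175 against 1233 to 2110, and those of natural killer cells 6670 to 6750 against 695 to 3367. No gene of these 3 lists was called by limma; at an unadjusted p under 0.05, 4 B cell markers were higher, and 2 of T cells and 2 of natural killer cells lower. The sums of neutrophil, basophil and mast, and erythroid markers overlapped, with 0 genes at that level. Plasmacytoid dendritic cell markers summed to 10964 to 11804 against 12479 to 15025. Ccr9 was called higher, but its means of 0 and 135 are a small part of that sum. It passed the filter through Etv3-/- alone, so it had to differ. Mitochondrial transcripts took 1.98% and 6.64% of normalized counts in Etv3+/+ and 1.10% to 3.17% in Etv3-/-, with none called.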

How the data were processed

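Up to 60000 sorted cells gave the RNA of each library, and cDNA was made with SMART-Seq chemistry for low input, per the labels' protocols. The values the authors deposited are normalized gene counts, used here as a signal: reads divided by a library's own size factor. Tools named in the submitters' processing notes are Trimmomatic 0.36, STAR 2.7.3a, featureCounts with Subread 1.6.3, and DESeq2 1.26.0, and the build is mm10; the annotation and strand setting are not stated there. Low values were whole multiples of a step of 0.856 to 1.24, and division by it gave whole reads, within 0.1, for 100% of values.

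Groups came from the genotype label. The test was limma 3.58.1 (lmFit, eBayes with trend, R 4.3.3) on log2(normalized count + 1), two-sided, with genotype as the single term, over all 13813 genes with 10 or more in at least 2 libraries, adjusted by Benjamini-Hochberg with 0.05 as threshold. The pseudocount makes fold changes of low genes too small in general, but a library at 0 can widen them. edgeR 4.0.16 and DESeq2 1.42.0 were run on the recovered reads as alternatives and called 158 and 1188 genes. Exact tests over the 10 splits of 2 against 3 libraries cannot go below 0.1, so none is printed. A floor of 3 reads per group stood for 0; PCR copies are not separate molecules, so it covers counting error alone.

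Positions and exonic lengths came from GENCODE M21 gene models on GRCm38, matched by symbol, and promoters from RefSeq. Reads of the near-identical copies Slc6a20a and Slc6a20b are uncertain. Of the tested members, 17 have a gene over them on the other strand and 11 share exonic bases with it; without strand, reads of both cannot be told apart.

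The symbol rule uses no measured value, but the theme and the lists were chosen with earlier results of these data known. Named with values were members past the threshold, members with an unadjusted p under 0.05, the 2 highest per kilobase in each role, and 11 known carriers of immune cells. Alternatives covered the pseudocount, filter, scaling, test, a replicate block, GC content and length, and each library left out. Of the tested members, 1 is counted but not reported by name here.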

Additional observations from a re-analysis of the deposited data

How the results depend on the processing

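The refits of the 25 named tested members under 19 alternatives gave 471 values: 431 kept their direction and their side of the threshold, 13 passed newly, 8 lost the call (all Slc43a2) and 19 changed direction, none of them called. The count of members called higher, 1 as reported, was 0 with no filter, 0 with limma without trend, 0 without both libraries of strong GC trend and 3 in DESeq2 (Slc43a2, Slc7a7 and Slc1a2). With 1 Etv3-/- library left out it was 0. Without Etv3+/+ replicate 2, 1 Etv3+/+ library was left, with Slc7a4 at 0. There Slc7a4 passed the filter through Etv3-/- alone and had to differ (log2 fold change 7.33). The count called lower, 0 as reported, was 1 (Slc6a19) with a pseudocount of 5, no filter, quantile normalization, limma without trend, edgeR and the GC and length correction. It was 2 in DESeq2 (Slc6a19 and Slc7a11). The same replicate numbers in both genotypes gave no sign of pairing (correlations of -0.03 and 0.04), which cannot settle whether samples were paired. With the replicate block, resting on numbers 1 and 2, the counts were 1 higher (Slc43a2) and 1 lower (Slc6a4, limma, adjusted p = 0.0375). In those libraries Slc6a4 was above 0 in Etv3+/+ alone, so it had to differ. With the GC and length correction as well the counts were 1 and 1. All genes called numbered 165 as reported, 269 with the block, 311 with the GC and length correction, 259 with both, and 1188 in DESeq2. The median of the tested members ran from -0.28 (without Etv3+/+ replicate 1) to 0.33 (without Etv3+/+ replicate 2). The cause was not tested.

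Without both libraries of strong GC trend the log2 fold change took the other sign for Slc7a2 (0.22), Slc1a5 (-0.18), Slc3a2 (-0.38), Slc38a10 (-0.20), Slc38a2 (0.053) and Slc38a9 (0.054). With the GC and length correction it did so for Slc1a5 (-0.10), Slc3a2 (-0.24) and Slc38a10 (-0.072), with the replicate block for Slc3a2 (-0.13), and with correction and replicate block for Slc7a2 (0.055), Slc3a2 (-0.30) and Slc38a10 (-0.062). With 1 library left out, values ran from -0.21 to 0.43 for Slc1a5, -0.23 to 0.25 for Slc3a2, -0.79 to 1.77 for Slc36a2 and -0.12 to 0.28 for Slc38a10.

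Shares per kilobase were also taken with the length of the longest transcript, an alternative chosen after seeing the data; the Slc7a7 difference was then 22.5 percentage points. With 2 against 3 libraries, members at low counts have wide intervals, and a p that misses the threshold does not show that genotypes did not differ.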

Other observations

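Slc6a15, a carrier of branched-chain amino acids and proline, was under the filter because it was seen in a single library, Etv3+/+ replicate 2, at 132 normalized counts. Slc6a3, the dopamine carrier, was likewise seen in Etv3+/+ replicate 1 alone, at 107. Slc6a20b was at 62.4 and 3.42 in Etv3+/+ and at 0 in all Etv3-/- libraries. These values are given with no test.

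Slc6a7, a proline carrier, and Slc36a3 were at 0 in both Etv3+/+ libraries. In Etv3-/- Slc6a7 was at 0, 12.4 and 88.6, and Slc36a3 at 29.0, 2.48 and 44.7. Neither had an unadjusted p under 0.05 in limma.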
